A study of Caenorhabditis elegans with 10 samples.

Results

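The genes described here are 65 Caenorhabditis elegans genes whose transcripts stood far higher in starved first-stage larvae than after feeding. They were chosen by a rule on the authors' deposited FPKM, a level per length and depth with the libraries of a time point pooled. The rule asked for a starved FPKM of 10 or more and for at least 8 times the highest of the 1 h, 3 h and 6 h values. It was applied to 13117 single genes that also had read counts per exonic bin, so these genes make up 0.496% of them and 0.869% of the 7477 genes with a starved FPKM of 10 or more. All larvae were whole wild-type N2 L1 grown in liquid culture. An L1 arrest of about 12 h is given for all libraries, so the fed larvae were recovering from it. Starved larvae, taken at that point and never fed, gave 3 libraries. Larvae then given HB101 bacteria for 1 h, 3 h or 6 h gave 2, 2 and 3. No unfed library of a later time was analysed here, so feeding and elapsed time cannot be told apart. In RNA of whole larvae, fewer cells of a type and less RNA per cell cannot be told apart either.

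Worms that hatch without food halt in L1, live on stored fat and glycogen, and resume growth when food arrives. In this state insulin signalling is low, which lets the FOXO transcription factor DAF-16 act in the nucleus, and AMP-activated protein kinase (AMPK) restrains growth and division. Stored fat is used by mitochondrial β-oxidation, and the glyoxylate cycle, which vertebrates lack, turns the acetyl-CoA it yields into precursors of sugar.

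Since the rule used starved against fed larvae, every starved-to-fed difference of these genes below is a description with no test. Only the order of the fed times, which the rule did not use, was tested. The rule did cap the highest fed FPKM, so the fed levels are not wholly free of it. Counts were summed per gene over its exonic bins, and totals ranged from 19163997 to 38607167 per library. Levels below are CPM, counts per 1000000 of the library size after TMM scaling, given per library in replicate order (replicates have no order in time) or as mean ± SD over 3, 2, 2 and 3 libraries for starved, 1 h, 3 h and 6 h. Of the 65 genes, 64 passed the filter on low counts, which a gene can pass through its starved libraries alone. Adjusted p-values come from edgeR's quasi-likelihood test with Benjamini-Hochberg adjustment over all 13226 gene units tested. The libraries of a group are called biological replicates, but separate cultures are not described, so p-values measure the spread between these libraries, which may be partly technical.

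The name of a starved-only set did not hold in the counts: transcripts of these genes stayed measurable after feeding. The median of the 64 genes lay at 6.06% of the starved mean at 1 h, 5.42% at 3 h and 5.96% at 6 h, with ranges of 0.728% to 15.3%, 0.713% to 18.2% and 0.233% to 27.9%. At 1 h, 12 genes were at 2% of the starved level or less and 16 at 10% or more. The median gene had 42 reads per fed library, and 18 genes had a median under 20 reads there, so their fed levels are imprecise. In 62 of the 65 genes the lowest starved library was above the highest fed library, against 17.8% of single genes tested, and the rule itself used this contrast. Levels at 1 h were already near those of later times: the median fitted log2 difference from starved was -4.02 at 1 h, -4.16 at 3 h and -4.07 at 6 h, while the median over all units was 0.00, -0.02 and -0.04. The lowest of the 3 fed means was that of 1 h in 23 genes, at 3 h in 22 and at 6 h in 19.

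**Figure D1:**
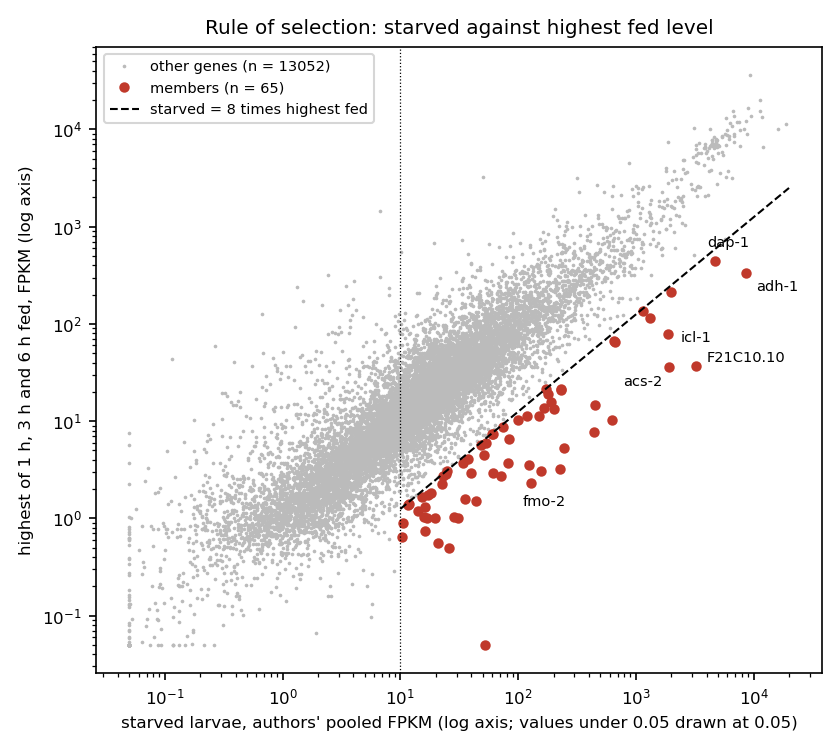
Each point is 1 of 13117 genes, with the authors' pooled FPKM of starved larvae on the horizontal axis and the highest of the fed FPKM values on the vertical axis, both logarithmic. The 65 genes of the rule (red) lie right of the dotted line at 10 FPKM and below the dashed line at a ratio of 8, and adh-1 has the highest starved value of them, 8641 FPKM.

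Starved levels covered a wide range. In the authors' deposited table the starved FPKM ran from 10.3 for srbc-20 to 8641 for adh-1, with a median of 61.3, and 27 genes had 100 or more. As a share of all counts, the 65 genes took 2.80% to 3.08% of a starved library, 0.118% to 0.119% at 1 h, 0.143% to 0.145% at 3 h and 0.0876% to 0.124% at 6 h. The metabolic genes adh-1, acs-2 and icl-1 supplied 56.6% to 59.8% of these reads in starved larvae.

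**Figure D2:**
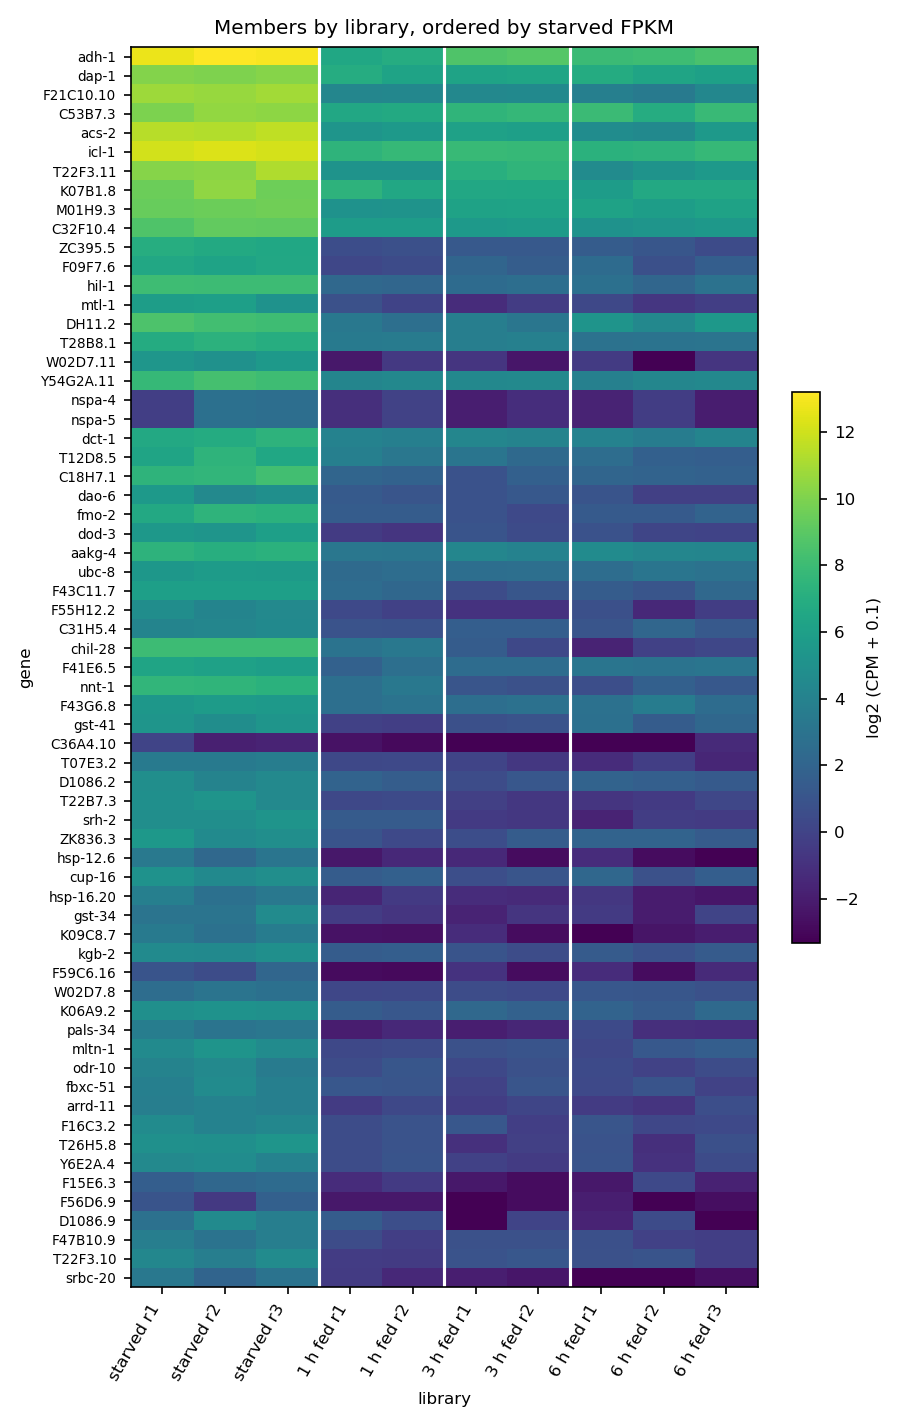
Rows are the 65 genes ordered by the authors' starved FPKM, columns are the 10 libraries, and colour is log2 of CPM + 0.1. The 3 starved columns are brighter than the 7 fed columns in all rows but those of nspa-4, nspa-5 and C36A4.10, where starved replicates overlap fed libraries.

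Enzymes of fat and alcohol metabolism took the most reads. Per length, adh-1 was the highest of the 65 genes, and acs-2 (1925 FPKM) and icl-1 (1889 FPKM) stood below dap-1 (4745), F21C10.10 (3233) and C53B7.3 (1993) in the authors' deposited table. The alcohol dehydrogenase gene adh-1 (K12G11.3, plus strand of chromosome V, WS210 positions 11888214 to 11889628) had 6739, 9531 and 8671 CPM in starved larvae. It had 92.0 and 118 CPM at 1 h, then 412 and 456 at 3 h and 243, 271 and 354 at 6 h. Every fed library was thus far below every starved one, yet the 3 fed groups did not overlap with each other, and 1 h was the lowest. The gene acs-2 (F28F8.2, chromosome V, 15567367 to 15569864, plus strand) encodes an acyl-CoA synthetase that feeds fatty acids into mitochondrial β-oxidation. Its starved libraries had 2827, 2554 and 3253 CPM, and it had 39.2 and 46.5 CPM at 1 h, then 70.9 and 64.2 at 3 h and 26.6, 23.4 and 49.4 at 6 h. The 3 h libraries were the highest of the fed ones. Their distance from the 6 h libraries, a log2 value of -1.03 ± 0.27 (SE), missed the threshold with an edgeR adjusted p of 0.0620, and the joint test over the fed times gave 0.0372.

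The gene icl-1 (C05E4.9, chromosome V, 724209 to 728105, minus strand) encodes the worm's bifunctional glyoxylate cycle enzyme, with isocitrate lyase and malate synthase activity. It had 4339, 5167 and 4483 CPM in starved larvae, 175 and 218 at 1 h, then 222 and 212 at 3 h and 151, 165 and 215 at 6 h. The fed groups overlapped and no fed contrast passed the test, with edgeR adjusted p-values of 0.566 to 0.764. The gene nnt-1 encodes the mitochondrial nicotinamide nucleotide transhydrogenase, which makes NADPH from NADH. Its levels were 189, 179 and 153 CPM in starved larvae and 6.63 and 9.76 at 1 h, with a further step down described below. The flavin monooxygenase gene fmo-2 had 99.0, 171 and 151 CPM in starved larvae and 1.17 to 3.74 CPM over the 7 fed libraries.

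Most enzymes of the same pathways did not share this pattern. Among 33 other tested genes of fatty acid oxidation, the glyoxylate cycle and gluconeogenesis, 12 rose and 8 fell at 1 h against starved. Over the alternatives 9 to 13 rose and 5 to 9 fell, with 5 that fell without replicate 1 of 1 h. Of all units, 20.4% rose and 18.7% fell at 1 h. The 1 h counts of the other lists below are to be read against these shares. The carnitine palmitoyltransferase gene cpt-5, whose family carries fatty acids into mitochondria, rose from 8.68 ± 1.204 to 205 ± 0.471 CPM (edgeR adjusted p = 1.6e-09). The acyl-CoA synthetase gene acs-11 fell from 385 ± 55.1 to 86.0 ± 6.58 CPM (edgeR adjusted p = 7.1e-07). pck-2, for the gluconeogenic enzyme PEP carboxykinase, fell from 2403 ± 689 to 934 ± 112 CPM (edgeR adjusted p = 0.00039). The median log2 difference of the 33 genes was 0.16 at 1 h, 0.06 at 3 h and 0.20 at 6 h, and its sign at 3 h and 6 h changed with the alternative (-0.19 to 0.15 and -0.14 to 0.31).

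Of 10 other alcohol and aldehyde dehydrogenase genes, 4 rose and 2 fell at 1 h. Those that rose were 1 to 5 over the alternatives, 1 without replicate 2 of 1 h and 2 without replicate 1, and those that fell were 1 to 2, with 1 without replicate 2 of 1 h. The largest rise was that of alh-13, from 14.2 ± 3.77 to 117 ± 4.18 CPM, and alh-8 fell from 3119 ± 548 to 1237 ± 24.8 CPM. None of 14 trehalose and glycogen genes was among the 65. Only 0.496% of all single genes were, so an absence from a list this short is near that share. In that list 2 rose and 8 fell at 1 h (0 to 2 and 6 to 9 over the alternatives; 0 rose without replicate 1 of 1 h, and 1 without replicate 2 of 1 h, replicate 2 or replicate 3 of starved). Its trehalose-phosphate synthase gene tps-1 fell from 299 ± 36.9 to 68.1 ± 1.78 CPM. None of 28 lipase and fat storage genes was among the 65 either, which is again near the share of 0.496%. There 6 rose and 5 fell at 1 h, near the 20.4% and 18.7% of all units that did. Without replicate 1 of 1 h 3 rose, without replicate 2 of 1 h 3 rose and 3 fell, and upper-quartile scaling gave 8 that fell. The lipase gene lipl-1 fell from 42.3 ± 8.19 to 7.38 ± 1.49 CPM and dgat-2, for an enzyme of triglyceride synthesis, rose from 4.68 ± 1.18 to 38.4 ± 6.22 CPM.

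**Figure D3:**
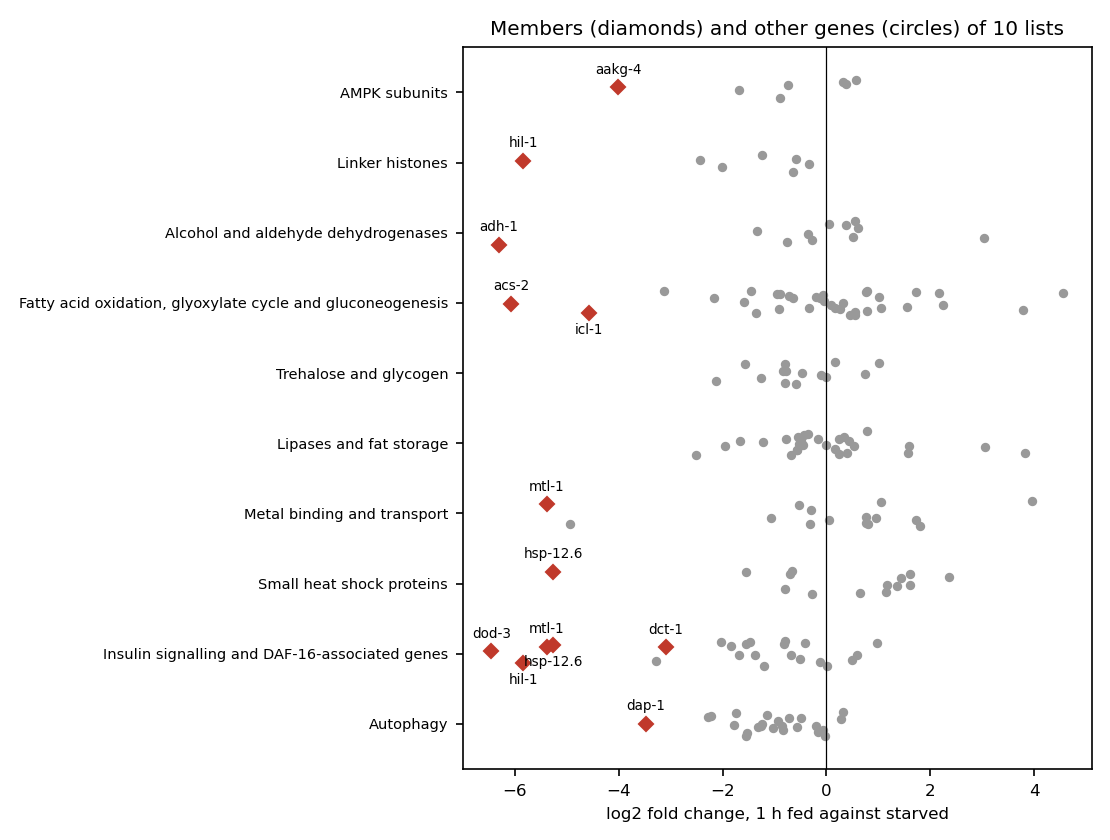
Each symbol is a gene of 1 of 10 lists, placed by its fitted log2 difference between 1 h fed and starved larvae; red diamonds are genes of the starved-high set, whose position the rule fixed, and grey circles are the other tested genes of the list. Linker histone, insulin-linked and autophagy genes lie mostly below 0, down to -3.29 for akt-1, and the genes of the fat oxidation, dehydrogenase, metal and small heat shock protein lists lie on both sides of it.

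Stress and insulin-linked genes formed the next group. The linker histone gene hil-1 (C30G7.1), whose protein binds DNA between nucleosomes, had 265, 254 and 260.1 CPM in starved larvae and 4.25 to 7.42 CPM in the fed ones. Its starved libraries spread by a factor of 1.05, close to the tightest of the set. The metallothionein gene mtl-1, whose protein binds metal ions, had 58.3, 64.6 and 34.6 CPM in starved larvae, 1.61 and 0.909 at 1 h, then 0.328 and 0.681 at 3 h and 1.08, 0.509 and 0.747 at 6 h. The small heat shock protein gene hsp-12.6 had 10.4, 4.70 and 8.41 CPM in starved larvae and 0 to 0.324 CPM when fed, the last from 0 to 8 reads per library. The gene dct-1 encodes a mitophagy receptor of the BNIP3 family and lay just inside the rule, at a ratio of 8.22. It had 101, 115 and 168 CPM in starved larvae and 12.07 to 19.4 CPM in the fed ones. The genes dod-3 and dao-6, named from screens for genes that change with DAF-16 or in dauer and aging, had 45.8, 39.3 and 64.006 CPM and 48.8, 21.9 and 29.9 CPM in starved larvae. When fed they had 0.490 to 1.86 and 0.786 to 2.44 CPM. All of these ranges were free of overlap between starved and fed libraries.

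Other genes of insulin signalling and of those tied to DAF-16 were called lower more often than higher. Of 18 such genes, 2 rose and 10 fell at 1 h (1 to 2 and 7 to 12 over the alternatives, with 1 rise without replicate 2 of 1 h). The kinase gene akt-1, which acts below the insulin receptor, fell from 284 ± 32.4 to 29.1 ± 1.42 CPM (edgeR adjusted p = 1.5e-08), and daf-2, the receptor gene itself, fell from 95.5 ± 29.0 to 26.8 ± 6.32 CPM (adjusted p = 0.00011). The superoxide dismutase gene sod-3, a common reporter of DAF-16 activity, fell from 22.7 ± 2.88 to 8.15 ± 0.551 CPM at 1 h and to 0.741 ± 0.121 CPM at 3 h. The list held 5 of the 65 genes, and its makeup was drawn up with these data known.

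The other linker histones fell less far. Of 6 tested, 4 fell and 0 rose at 1 h (3 to 4 fell over the alternatives), among them hil-7, from 65.0 ± 24.3 to 12.0 ± 0.406 CPM. Metal genes went the other way: of 14 tested beside mtl-1, 8 rose and 2 fell (7 to 8 and 2 to 4 over the alternatives; 4 fell without replicate 2 of starved). The ferritin gene ftn-1, whose product stores iron, was an exception and fell from 68.6 ± 14.95 to 2.24 ± 0.0583 CPM at 1 h before standing at 29.8 ± 16.412 CPM at 6 h. mtl-2, the other metallothionein gene, had 3.57 ± 0.434 CPM in starved larvae and 2.87 ± 1.09 at 1 h (edgeR adjusted p = 0.49).

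Among 13 other small heat shock protein genes, 7 rose and 2 fell at 1 h. The rises rested on replicate 1 of 1 h, since 1 gene rose without it, and 0 to 2 fell over the alternatives (0 without replicate 3 of starved or without either 1 h replicate, 1 without replicate 2 of starved or without replicate 1 or 2 of 3 h or of 6 h). Over all 20 other hsp genes 14 rose and 1 fell at 1 h. Without replicate 1 of 1 h 7 rose, and over the alternatives 0 to 1 fell, with 0 without replicate 3 of starved, either 1 h replicate, either 3 h replicate, or replicate 1 or 2 of 6 h. hsp-110, a large chaperone gene, rose from 89.6 ± 13.8 to 561 ± 68.1 CPM (edgeR adjusted p = 1.9e-07). Against them, hsp-16.20 of the starved-high set had 14.0, 6.86 and 9.73 CPM in starved larvae and 0.0996 to 0.595 CPM when fed.

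The AMPK γ subunit gene aakg-4 (T01B6.3) had 166, 133 and 149 CPM in starved larvae. Its fed libraries had 9.52 and 8.99 CPM at 1 h, then 18.8 and 15.99 at 3 h and 25.3, 18.8 and 18.03 at 6 h. Other AMPK subunits differed less. Of 6 tested, 1 rose and 3 fell at 1 h (0 to 2 and 1 to 3 over the alternatives). No gene rose without replicate 1 or 3 of starved or replicate 2 of 1 h, and 1 fell without replicate 1 of 1 h. The β subunit gene aakb-1 fell from 115 ± 18.1 to 35.6 ± 3.71 CPM (edgeR adjusted p = 5.5e-05), while the γ subunit gene aakg-5 rose from 44.8 ± 6.18 to 66.9 ± 9.20 CPM (adjusted p = 0.023).

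The gene dap-1, whose human relative DAP1 is known as an autophagy regulator, had 1122, 1042 and 1214 CPM in starved larvae, 123 and 78.2 at 1 h, then 77.9 and 86.0 at 3 h and 117, 79.0 and 67.5 at 6 h. The fed groups overlapped. Of 23 other autophagy genes, 15 fell and 0 rose at 1 h (12 to 17 fell over the alternatives and 0 rose), 13 fell and 1 rose at 3 h, and 15 fell and 1 rose at 6 h, where 19.7% and 25.0% of all units fell. The ubiquitin-like gene lgg-1, a marker of autophagosomes, fell from 635 ± 119.3 to 135 ± 9.52 CPM at 1 h (edgeR adjusted p = 1.2e-06), and atg-18 fell from 338 ± 63.0 to 69.1 ± 3.30 CPM (adjusted p = 1.4e-06). ubc-8, for a ubiquitin-conjugating enzyme, was one of the 65 and had 42.3, 54.5 and 50.8 CPM in starved larvae and 5.25 to 8.56 CPM when fed.

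Glutathione S-transferases, which join glutathione to toxic compounds, gave 2 of the 65 genes. gst-41 had 38.9, 27.0 and 39.6 CPM in starved larvae and gst-34 had 8.09, 8.14 and 25.3, so the latter leaned on replicate 3. Of 40 other gst genes 10 rose and 5 fell at 1 h. Without replicate 1 of 1 h the numbers were 4 and 3, and without replicate 2 of 1 h 6 and 3. gst-21 rose from 2.55 ± 0.373 to 31.8 ± 4.52 CPM (edgeR adjusted p = 2.5e-08).

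Genes of receptors and signalling were present at low levels. The chemoreceptor gene odr-10 encodes the receptor through which AWA neurons detect diacetyl, an odour of food bacteria, and had 16.6, 21.6 and 11.4 CPM in starved larvae and 0.879 to 2.03 CPM when fed. The chemoreceptor family genes srh-2 and srbc-20 had 29.4 to 37.3 and 4.00 to 9.70 CPM in starved larvae. kgb-2, for a JNK-like kinase, had 24.3, 22.8 and 30.3 CPM and 1.31 to 3.04 CPM when fed, and its ratio of 8.10 in the authors' deposited table was the smallest of the set. The F-box gene fbxc-51 had 14.1, 25.3 and 13.9 CPM in starved larvae and 0.847 to 2.14 CPM in the fed ones.

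Of the 65 genes, 36 had no symbol in the reference, among them several of the most abundant. F21C10.10 (chromosome V, 9095983 to 9097201, plus strand) had 1741, 1650.1 and 1982 CPM in starved larvae, 19.3 and 20.3 at 1 h, then 20.9 and 23.1 at 3 h and 14.3, 10.7 and 20.2 at 6 h. In the authors' deposited table its ratio of 87.2 was the largest among genes with a fed value above 0. W02D7.11 followed with 71.5, ZC395.5 with 61.7, hil-1 with 56.9, fmo-2 with 55.9, acs-2 with 53.2 and K09C8.7 with 53.0 in the authors' deposited table. W02D7.11 had 1080, 1365 and 1158 reads in starved libraries and 0 to 16 in fed ones. K09C8.7 had 278, 291 and 285 reads in starved libraries and 0 to 6 in fed ones. ZC395.5 had 127, 105 and 93.8 CPM in starved larvae and 1.25 to 2.70 CPM when fed, and F09F7.6 had 95.2, 75.7 and 96.0 CPM in starved larvae and 1.05 to 5.50 when fed. C32F10.4 had 413, 611 and 590.1 CPM in starved larvae and 34.02 to 57.2 when fed. K07B1.8, which has no entry in the reference, had 723, 1409 and 744 CPM in starved larvae and 57.2 to 166 when fed.

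At the other edge, the genes just inside the ratio were kgb-2 at 8.10, F43G6.8 at 8.15 and dct-1 at 8.22, and those just outside were B0563.5 at 7.75, F16B3.2 at 7.73 and ZC443.3 at 7.66, all in the authors' deposited table. In CPM, ZC443.3 had 121 ± 30.1 in starved larvae and 14.4 ± 2.32, 12.0 ± 0.112 and 14.9 ± 4.23 at 1 h, 3 h and 6 h. F43G6.8 had 48.8 ± 5.54 in starved larvae and 7.19 ± 0.954, 6.63 ± 0.655 and 8.40 ± 3.42 when fed. The edge therefore parts no separate group of genes. On mean CPM 50 of the 65 genes reached a ratio of 8, and 32 did so from the lowest starved to the highest fed library.

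Genes outside the set whose log2 CPM over the 10 libraries followed the median of the set most closely were ZC443.4 (r = 0.994), T27E4.1 (r = 0.992) and the transthyretin-related gene ttr-37 (r = 0.991). These correlations rest chiefly on the step between starved and fed libraries. ZC443.4 had 55.2, 58.8 and 65.0 CPM in starved larvae and 10.8 to 16.44 when fed. Its ratio of 4.43 in the authors' deposited table kept it outside the rule.

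Replicates of starved larvae agreed for most of the genes. The highest starved library was less than 2 times the lowest in 52 of the 65 and more than 3 times in 7: nspa-4, nspa-5, C36A4.10, F56D6.9, F59C6.16, D1086.9 and gst-34. The first 5 are among the 6 genes with under 300 nt of exonic bins. The nematode-specific peptide family genes nspa-4 and nspa-5 had 19, 284 and 148 and 19, 286 and 148 reads in starved libraries and 3 to 24 in fed ones. Their counts differed by 2 reads in 1 library and by none in the others, so reads of the pair cannot be assigned to either gene. C36A4.10 is listed at 0 FPKM at all fed times in the authors' deposited table, with 52.3 in starved larvae. It had 25, 7 and 5 reads in starved libraries and 2, 1, 0, 0, 0, 0 and 6 in fed ones, so its starved and fed counts overlap, and it failed the low-count filter.

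The fed times were then compared with each other, to ask whether genes at a low level kept falling or recovered. Only 58 of the 64 genes passed the low-count filter when the fed libraries were fitted alone. The percentages below keep all 64, including those that passed through their starved libraries. At 3 h against 1 h, 7 of 64 genes (10.9%) rose and 4 (6.25%) fell, where 4.79% and 4.6% of all units did. At 6 h against 3 h, 2 rose and 2 fell (3.12% each), where 2.1% and 0.665% of all units did. At 6 h against 1 h, 9 rose (14.1%) and 7 fell (10.9%), where 13.3% and 11.3% did. The first and last comparison share the 1 h libraries. Medians over the 64 genes were -0.16, -0.00 and -0.07 on the log2 scale, beside -0.01, 0.01 and -0.01 over all units. The joint test over the fed times called 17 genes (26.6%), where 20.1% of all units were called, and 10 without replicate 1 of 1 h. Single libraries moved these counts. Without any 1 of the 4 libraries of 1 h and 3 h, 3 genes rose at 3 h against 1 h. Without replicate 1 of 1 h, 5 rose and 3 fell at 6 h against 1 h. At 6 h against 3 h, 0 rose without replicate 2 of 3 h, and 1 rose without replicate 1 of starved, of 3 h or of 6 h, replicate 3 of 6 h or either 1 h library. In that step 1 fell without either 3 h library or without replicate 1 or 2 of 6 h. With library totals in place of TMM, which shifted the median of all units by -0.37 at 3 h and -0.46 at 6 h against 1 h, 3 rose and 10 fell at 3 h, and 5 rose and 20 fell at 6 h.

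**Figure D4:**
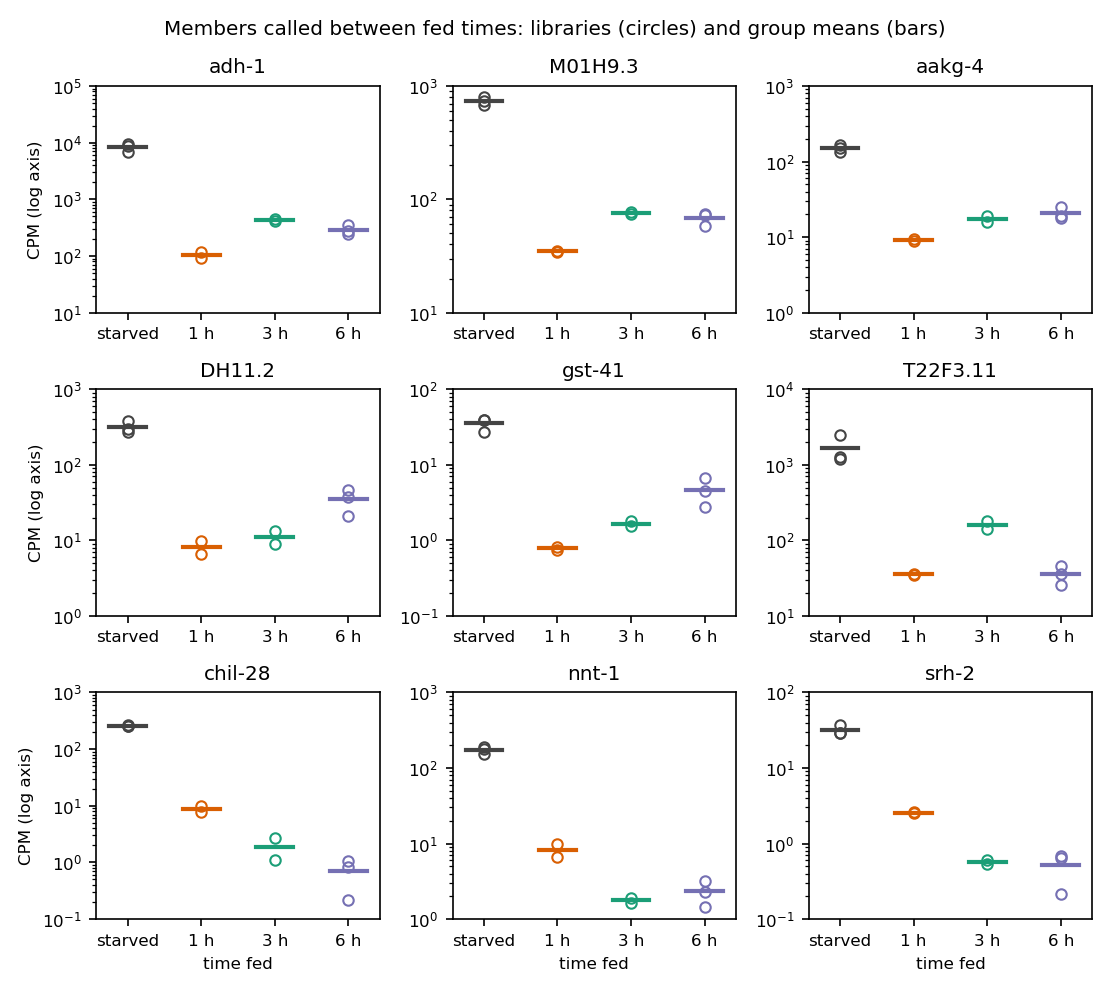
CPM on a log axis for 9 genes called between fed times, with a circle per library and a bar at the group mean. adh-1, M01H9.3, aakg-4, DH11.2 and gst-41 stood higher at 6 h than at 1 h, T22F3.11 peaked at 3 h among fed times (141 and 178 CPM), and chil-28, nnt-1 and srh-2 stepped further down.

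Several genes rose again from their 1 h level. The alcohol dehydrogenase gene adh-1 rose by a log2 value of 2.04 ± 0.26 from 1 h to 3 h (edgeR adjusted p = 0.000299) and stayed above 1 h at 6 h (1.46 ± 0.24, adjusted p = 0.000679). Even so, its 6 h mean was 3.48% of the starved one. M01H9.3 had 34.2 and 35.3 CPM at 1 h, then 74.6 and 77.2 at 3 h and 74.2, 57.9 and 72.5 at 6 h, against 676, 738 and 804 in starved larvae. It rose by 1.13 ± 0.19 at 3 h (adjusted p = 0.00223) and by 0.97 ± 0.18 at 6 h (adjusted p = 0.00136) from 1 h. The AMPK subunit gene aakg-4 rose by 1.16 ± 0.19 from 1 h to 6 h (adjusted p = 0.000688). Its rise by 3 h, 0.91 ± 0.21 (adjusted p = 0.0136), was lost with library totals (adjusted p = 0.126) and without any 1 library of 1 h or 3 h (0.0891 and 0.145 without replicates 1 and 2 of 1 h, 0.124 and 0.0581 without those of 3 h).

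DH11.2 and gst-41 rose late. DH11.2 had 9.93 and 6.54 CPM at 1 h, then 13.3 and 8.90 at 3 h and 37.7, 21.1 and 45.9 at 6 h, so that the 6 h libraries were above all other fed ones. It rose by 2.08 ± 0.32 from 1 h to 6 h (edgeR adjusted p = 0.000372) and by 1.65 ± 0.31 from 3 h (adjusted p = 0.0094, and 0.194 without replicate 2 of 3 h). gst-41 had 0.824 and 0.734 CPM at 1 h, then 1.53 and 1.80 at 3 h and 6.69, 2.73 and 4.43 at 6 h. Its 6 h mean stood at 13.1% of the starved one, and it rose by 2.55 ± 0.38 from 1 h (adjusted p = 0.000273). Its step from 3 h, 1.46 ± 0.35 (adjusted p = 0.0405), was lost with library totals, upper-quartile factors, the fed libraries alone or barcodes 1 to 8 alone (adjusted p = 0.0618 to 0.0856). It was also lost without replicate 1 of starved (0.0561), replicates 1 or 2 of 1 h (0.0707 and 0.0710), replicates 1 or 2 of 3 h (0.338 and 0.250) or replicates 1 or 3 of 6 h (0.111 and 0.0686).

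T22F3.11 was the one gene called in both steps, in opposite directions. It had 35.2 and 36.3 CPM at 1 h, then 141 and 178 at 3 h and 25.2, 35.6 and 46.1 at 6 h, against 1181, 1274 and 2482 in starved larvae. It rose by 2.16 ± 0.35 to 3 h (edgeR adjusted p = 0.00167) and fell by 2.16 ± 0.31 to 6 h (adjusted p = 0.000860). acs-2 had the same order of fed means, 42.8, 67.6 and 33.1 CPM, without passing either step.

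The other rises were less stable. F09F7.6 rose by 1.54 ± 0.44 at 3 h (edgeR adjusted p = 0.0418) and by 1.503 ± 0.41 at 6 h (adjusted p = 0.0165), from 1.05 and 1.29 CPM at 1 h. The first call was lost with library totals, upper-quartile factors, fed libraries alone and barcodes 1 to 8 alone (adjusted p = 0.0508 to 0.109), without replicate 1 of starved (0.0519), and without replicates 1 or 2 of 1 h (0.234 and 0.178) or of 3 h (0.239 and 0.0931). The second was lost with library totals (0.0724), without replicates 1 or 2 of 1 h (0.131 and 0.0881) and without replicate 1 of 6 h (0.0582). dod-3 rose by 1.46 ± 0.41 at 3 h (adjusted p = 0.0373), lost with library totals (0.0841), with the fed libraries alone (0.124), without replicates 1 or 2 of 1 h (0.125 and 0.266) or of 3 h (0.248 and 0.0842). T22F3.10 rose by 1.59 ± 0.45 at 3 h (adjusted p = 0.0392), lost with library totals (0.0717), with the fed libraries alone (0.0820), without replicate 1 of starved (0.0538), and without replicates 1 or 2 of 1 h (0.172 and 0.228) or of 3 h (0.103 and 0.227).

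A call at 6 h against 1 h and in no other step was made for 3 genes that rose. C53B7.3 had 97.2 and 108 CPM at 1 h and 245, 123 and 235 at 6 h, a rise of 0.97 ± 0.28 (edgeR adjusted p = 0.0199). It was lost with library totals (0.124) and barcodes 1 to 8 alone (0.0532), and without replicates 1 or 2 of 1 h (0.153 and 0.110) or replicates 1 or 3 of 6 h (0.0659 and 0.0560). F41E6.5 had 3.45 and 6.40 CPM at 1 h and 8.52, 7.86 and 8.67 at 6 h, a rise of 0.76 ± 0.24 (adjusted p = 0.0311). Library totals (0.355), the fed libraries alone (0.0609) and barcodes 1 to 8 alone (0.0566) ended that call, as did leaving out replicate 1 of 1 h (0.338) or replicates 1 or 3 of 6 h (0.0630 and 0.0617). ZK836.3 had 1.87 and 1.15 CPM at 1 h and 3.72, 3.70 and 2.54 at 6 h, a rise of 1.13 ± 0.37 (adjusted p = 0.0376). Library totals (0.155), upper-quartile factors (0.0510) and the fed libraries alone (0.0631) ended it, as did leaving out replicates 1 or 2 of 1 h (0.0630 and 0.299) or of 6 h (0.0862 and 0.0912).

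Other genes fell further after 1 h. chil-28, a chitinase-like locus that the reference lists as a pseudogene, had 261, 254 and 264 CPM in starved larvae, 7.83 and 9.93 at 1 h, then 2.68 and 1.12 at 3 h and 0.216, 0.832 and 1.05 at 6 h. The 6 h mean was 0.269% of the starved one, and the fall from 1 h measured 2.24 ± 0.37 at 3 h (edgeR adjusted p = 0.00192) and 3.64 ± 0.37 at 6 h (adjusted p = 1.03e-05). The transhydrogenase gene nnt-1 went on to 1.91 and 1.65 CPM at 3 h and 1.46, 3.24 and 2.29 at 6 h. It fell by 2.20 ± 0.31 at 3 h (adjusted p = 0.000580) and by 1.80 ± 0.26 at 6 h (adjusted p = 0.000248) from 1 h. The chemoreceptor gene srh-2 had 2.55 and 2.59 CPM at 1 h, then 0.601 and 0.535 at 3 h and 0.216, 0.694 and 0.648 at 6 h. It fell by 2.27 ± 0.34 from 1 h to 6 h (adjusted p = 0.000273) and by 2.17 ± 0.38 to 3 h (adjusted p = 0.00285, and 0.0534 without replicate 2 of 3 h). In these 3 genes, neither 1 h library overlapped a later one.

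Beside the 3 h fall of srh-2, falls that were lost under at least 1 alternative, or could not be tested under one, were seen in 5 genes. F43C11.7 had 5.66 and 4.55 CPM at 1 h and 1.37 and 2.09 at 3 h, a fall of 1.55 ± 0.34 (edgeR adjusted p = 0.0102), lost without replicate 1 of 1 h (0.0922) or of 3 h (0.116). T12D8.5 had 14.1 and 9.37 CPM at 1 h and 5.93, 3.24 and 2.99 at 6 h, a fall of 1.54 ± 0.37 (adjusted p = 0.00884, and 0.105 without replicate 1 of 1 h). The chemoreceptor gene srbc-20 had 17 and 8 reads at 1 h and 0, 0 and 1 at 6 h (adjusted p = 0.00526, and 0.0613 without replicate 1 of 1 h). Its fitted log2 difference of -4.41 ± 0.99 was the largest of the called falls, but rests on these few reads, and the gene failed the low-count filter when the fed libraries were fitted alone, so the call could not be tested there. T07E3.2 fell by 1.35 ± 0.43 from 1 h to 6 h (adjusted p = 0.0342). The fed libraries alone (0.110) and barcodes 1 to 8 alone (0.110) ended that call, as did leaving out replicates 1 or 2 of 1 h (0.125 and 0.141) or replicates 1 or 3 of 6 h (0.0874 and 0.0933).

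T28B8.1 had 11.1 and 11.7 CPM at 1 h, then 13.2 and 14.3 at 3 h and 7.55, 7.86 and 8.22 at 6 h, without overlap between the times. It fell by 0.81 ± 0.17 from 3 h to 6 h (edgeR adjusted p = 0.0191), a call lost without replicates 1 or 2 of 3 h (0.133 and 0.251) or of 6 h (0.0641 and 0.0521). From 1 h to 6 h it fell by 0.54 ± 0.17 (adjusted p = 0.0342). That call was lost with the fed libraries alone (0.0513), without replicates 1 or 2 of 1 h (0.131 and 0.178), of 3 h (0.0547 and 0.0548) or of 6 h (0.0786 and 0.0670).

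Some features that the rule did not name were shared, given here as descriptions. Exonic length entered the rule through FPKM, a level per length, so the comparison of lengths is not independent of the rule. Chromosome V held 25 of the 65 genes (38.5%), beside 18.8% of the 7477 genes with a starved FPKM of 10 or more. The median exonic length was 950 nt, beside 1327 nt, and 6 genes (9.23%) were under 300 nt, beside 1.51%. In those 6 short genes the authors' deposited table gave higher starved values than CPM per kilobase did. Examples were 192 FPKM beside 22.9 for nspa-4 and 228 FPKM beside 164 for W02D7.11. Most longer genes differed in the same direction, as adh-1 with 8641 FPKM beside 6284. Some differed in the other, as chil-28 with 71.2 FPKM beside 99.3. No symbol was given for 55.4% of the 65, beside 33.4%. Of the 65 genes 17 are overlapped by a gene on the other strand and 3 by a gene on the same strand. No source used here says whether the counting used strand, so reads of such partners cannot be told apart. dap-1, F21C10.10, M01H9.3, aakg-4, nnt-1, kgb-2, W02D7.8 and T22F3.10 are among the 17.

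Among the 65 genes 6 pairs lay within 25 kb of each other, and in 3 pairs no annotated gene stood between. icl-1 and srh-2 face away from each other on chromosome V, with 205 bases between the end of icl-1 at 728105 and the start of srh-2 at 728311. Their fed courses differed: icl-1 stayed at 4.22%, 4.66% and 3.79% of its starved mean at 1 h, 3 h and 6 h, while srh-2 stood at 8.01%, 1.77% and 1.62%. T22F3.10 and T22F3.11 lie 1245 bases apart on the minus strand of chromosome V. T22F3.10 stood at 3.33%, 10.1% and 7.25% of its starved mean and T22F3.11 at 2.17%, 9.68% and 2.17%, both highest at 3 h. W02D7.8 and W02D7.11, 650 bases apart on the minus strand, were the furthest from each other, at 15.3%, 18.2% and 27.9% and at 0.814%, 0.713% and 0.924%. W02D7.8 thus kept the largest share of its starved level at 6 h. The difference between neighbours was not tested.

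**Figure D5:**
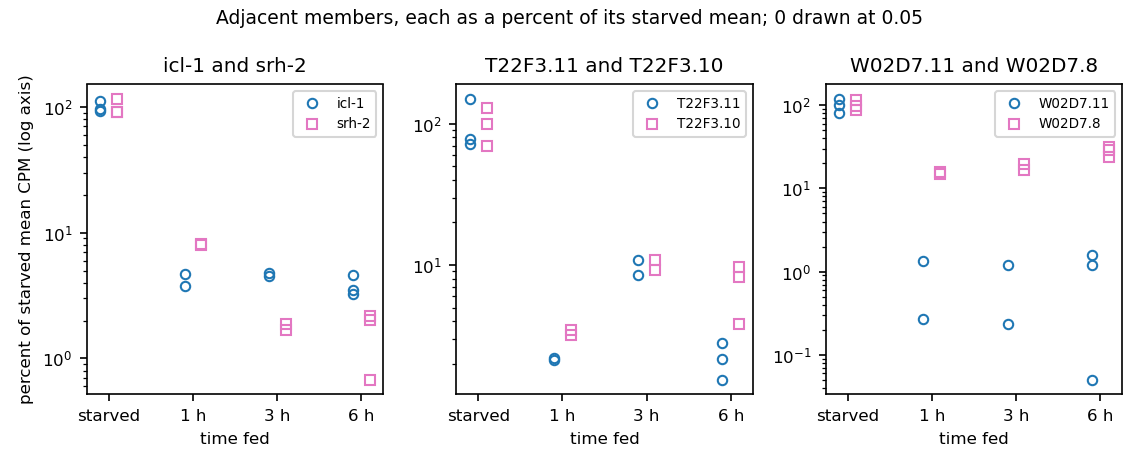
Each library of 3 adjacent gene pairs as a percent of the gene's starved mean CPM, on a log axis; circles and squares are the 2 genes, and a value of 0 is drawn at 0.05. In the icl-1 and srh-2 pair the order turns between 1 h and 3 h, and in the W02D7 pair the squares (W02D7.8, 27.9% at 6 h) lie above the circles in every fed library.

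Transcripts of the same gene did not all reach the ratio of 8 that the gene reached. Some lay just under it, as both transcripts of dct-1 at 7.69 and 7.55. The transcript levels are pooled estimates that carry no error, and differences between transcripts were not tested. Of the 65 genes, 48 have 1 transcript in the authors' deposited table and 17 have 2 or more, 42 transcripts in all. Of these, 35 had a starved FPKM of 10 or more, and 25 of the 35 were at least 8 times their highest fed value in the authors' deposited table. For M01H9.3, the transcript M01H9.3b had a starved FPKM of 111 and a ratio of 29.5, and M01H9.3d.1 had 212 and a ratio of 6.68 in the authors' deposited table. For C53B7.3, the transcript C53B7.3d.1 had 1031 FPKM and a ratio of 15.1, and C53B7.3b had 268 FPKM and a ratio of 3.69 in the authors' deposited table. In the icl-1 locus one transcript, C05E4.9b, carried 93.5% of the starved FPKM and 90.8% to 96.0% at fed times in the authors' deposited table.

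The spread of reads over a gene's bins shifted most in arrd-11, an arrestin-domain gene, in F56D6.9 and in kgb-2, a choice made after the values were seen. In arrd-11 the third bin (chromosome II, 13763995 to 13764157) held 170 of 1343 reads in starved libraries (12.7%) and 80 of 134 in fed ones (59.7%). In kgb-2 the eighth bin (chromosome IV, 3608517 to 3608618) held 13.6% of 2281 starved reads and 40.7% of 356 fed ones. The gene ZC416.6 overlaps kgb-2 on the other strand, and its reads cannot be told apart from those of kgb-2. F56D6.9 had 11 fed reads in all. Reads were pooled over libraries here and these shifts were not tested. In adh-1, with 772299 starved and 40248 fed reads, the largest gain of a bin was from 33.9% to 35.6%.

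Markers of tissues are given beside these levels, with calls to be read against the 18.7%, 19.7% and 25.0% of all units that fell at 1 h, 3 h and 6 h and the 20.4%, 21.9% and 27.0% that rose. Of 7 tested neuron markers 2 fell and 0 rose at each time, and their summed level was 2666 to 3400 CPM in starved larvae and 1654 to 2202 CPM in fed ones. Of 4 body wall muscle markers 3 fell at 1 h and 4 at 3 h and at 6 h, with sums of 3888 to 5553 CPM in starved and 2167 to 3366 CPM in fed larvae. Of 6 pharynx markers 2 fell at 1 h and 3 at 3 h and at 6 h, with sums of 1786 to 3650 CPM in starved and 1342 to 2283 CPM in fed larvae. None of the muscle and pharynx markers rose. Of 7 intestine markers 3 rose and 2 fell at each time, with sums of 1668 to 1963 CPM in starved larvae and 1798 to 2987 CPM in fed ones. Of 5 hypodermis and seam markers 2 rose at 1 h and 3 at 3 h and at 6 h, and 1 fell at each time. Their sums were 223 to 283 CPM in starved and 250.5 to 331 CPM in fed larvae. Of 7 germ line markers 0 were called at 1 h, and 1 fell at 3 h and at 6 h, with sums of 73.1 to 100.5 CPM in starved larvae and 34.7 to 121 CPM in fed ones. Of 7 oocyte and early embryo markers 1 rose at 1 h, 2 fell at 3 h and 6 fell at 6 h. Their sums were 26.1 to 48.2 CPM in starved larvae, 41.9 to 45.6 at 1 h, then 20.7 to 27.2 at 3 h and 15.4 to 26.3 at 6 h. Of 7 genes listed for embryonic gastrulation only nos-2 was measured, which alone cannot mark that stage. nos-2 had 1.72 to 3.46 CPM in starved larvae and 0.697 to 1.80 CPM in fed ones, and fell at 6 h. Of 4 genes listed for dauer or late larvae, lin-42 and bli-1 were measured. They summed to 1.26 to 3.30 CPM in starved larvae, 3.57 to 3.60 at 1 h, 8.94 to 9.34 at 3 h and 25.3 to 37.5 at 6 h. Which stage or process this sum tracks was not tested. The one of these 2 genes that was tested between groups rose at 3 h and at 6 h, and bli-1 was at 0 in at least 1 library. The other tissue and stage markers measured had reads in every library. The part of these tissues and stages in the levels of the 65 genes was not tested.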

How the data were processed

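Poly(A) RNA of whole larvae was sequenced on SOLiD 4, with 10 libraries in 4 groups by the labels. The submitters' processing notes name TopHat and Bowtie 0.12.7 as tools. The deposited read counts per exonic bin, on WS210 gene models, are whole-number counts made by the authors and not normalized. The authors' deposited notes name Cufflinks 1.0.2 (cuffdiff) for the FPKM values, with libraries pooled per time, so they carry no error. No source used here states the strand setting of the counting. Here, bin counts were summed per gene unit (13374 units, 257 of them merged genes, which the rule left out). edgeR 4.0.16 in R 4.3.3 was run with TMM scaling, its filter on low counts (13226 units kept) and a robust quasi-likelihood fit of all 10 libraries in 4 groups, tested on simulated data. Calls had a Benjamini-Hochberg adjusted p under 0.05 over all units. Alternatives were DESeq2 1.42.0, other scalings, no filter, subsets of libraries, a block and leaving out each library. The members, gene lists and tests were chosen with earlier results of these data known. Named genes were the 15 with the highest starved FPKM, the 8 with the largest ratio, up to 6 called per direction of each fed contrast, 3 on each side of the threshold, list and family members, adjacent members and the 3 most alike outside genes. Other members and the list examples were named after their values were seen. Summed counts of 19163997 to 38607167 per library limit genes with few fed reads, and counting error adds to the spread between libraries.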

Additional observations from a re-analysis of the deposited data

How the results depend on the processing

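Of 31 calls of a gene between fed times, 14 held in every alternative and none changed direction: adh-1, M01H9.3, chil-28 and nnt-1 at 3 h and 6 h against 1 h, T22F3.11 in both steps, and srh-2, DH11.2, aakg-4 and gst-41 at 6 h against 1 h. Library totals alone gave 3 genes higher and 10 lower at 3 h against 1 h, 5 and 20 at 6 h against 1 h, and 1 higher at 6 h against 3 h. Upper-quartile factors, the fed libraries alone and barcodes 1 to 8 alone each gave 1 higher at 6 h against 3 h. DESeq2 and barcodes 1 to 8 alone each gave 4 lower at 6 h against 3 h, and barcodes 1 to 8 alone gave 11 lower at 6 h against 1 h. Leaving out 1 library gave 3 to 8 higher and 3 to 5 lower at 3 h against 1 h, 0 to 2 and 1 to 3 at 6 h against 3 h, 5 to 10 and 3 to 9 at 6 h against 1 h, and 10 to 18 in the joint test. The causes were not tested. srbc-20 was not among the genes tested in the fed libraries alone. Deviations from group means were correlated between libraries that share a barcode set. Of 13 pairs 9 were above 0.1, with r from 0.0766 to 0.330. In groups of 2 libraries these deviations mirror each other, so the pairs are not independent. The values therefore cannot decide whether libraries were paired, and no label says that a set marks a shared culture. A replicate block by barcode set lost none of the 31 calls and gave 12 lower at 6 h against 1 h. A ratio of 4 chose 211 genes, a ratio of 16 chose 25, and a ratio of 8 from the lowest starved to the highest fed library chose 32. The median log2 difference from starved was -4.15 at 1 h, -4.31 at 3 h and -4.27 at 6 h with upper-quartile factors, and -4.38 at 3 h and -4.39 at 6 h with library totals. The rule on CPM per kilobase, which chose 49 genes, and the alternatives for the lists were added after seeing the data.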
